A study of Mus musculus with 7 samples.

Results

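Immediate early genes are transcribed within minutes of a growth signal by factors already present in the cell. Here 10 of them that lie outside the Fos and Jun (AP-1) family were examined in the inner cell mass (ICM) of mouse blastocysts. The embryos carried a RAF construct, which acts upstream of ERK, and were given tamoxifen or vehicle for 4 h. ERK activity itself was not measured in these libraries. The genes were Egr1, Egr2 and Egr3, Ier2, Ier3 and Ier5, Csrnp1, Klf6 and Klf10, and Phlda1. All 10 were found among the 52636 genes of the count table. Of these, 9 were taken as known genes of the class, with earlier results of these libraries in view, and Csrnp1 was selected on its low values at 4 h. The values of Csrnp1 are therefore given as a description with no test.

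The embryos had the genotype Sox2Cre;CRAFR26, in which Cre recombinase is driven by regulatory sequence of Sox2, a gene of the ICM and epiblast, and activity of the RAF construct depends on 4-hydroxytamoxifen (here tamoxifen). Embryos of both groups were flushed at embryonic day 2.5 and kept for 24 h in culture with 250 nM PD173074, a blocker of FGF receptors, which the controls received as well. The vehicle group (ethanol for 4 h, time label 0 h) held 3 libraries, clone4_1, clone4_2 and clone8_1, and the tamoxifen group (250 nM for 4 h) held 4, clone4_1, clone4_2, clone8_1 and clone8_2. The mouse line was made by injecting embryonic stem cells with the construct into morulas, and the labels give 2 biological clones, 4 and 8. A further vehicle sample was dropped by the submitters at quality control, so clone 8 has a single vehicle library. Each library came from 10 pooled ICMs, collected at embryonic day 3.5 after immunosurgery, and the spread between libraries is the spread between such pools.

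In most cell types a growth factor activates RAF, MEK and ERK in turn. ERK phosphorylates ternary complex factors of the ETS family, which sit with serum response factor (SRF) on serum response elements, and transcription of immediate early genes starts at once. The transcripts are short-lived and usually decline within hours even when the signal goes on, as their own products and the ERK phosphatases and Sprouty proteins feed back. The EGR proteins are zinc finger transcription factors, Klf6 and Klf10 encode Krüppel-like zinc finger factors, and Csrnp1 encodes a nuclear protein first described as induced by AXIN1. Ier2, Ier3 and Ier5 encode small regulatory proteins, and Phlda1 a pleckstrin homology-like protein that is often used as a readout of ERK activity.

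The 300-base window around a start site was available in RefSeq (GRCm38.p6) for 5 of the 10 genes, Csrnp1, Egr2, Ier3, Ier5 and Klf6, with 12 windows in all because Csrnp1 and Egr2 have several start sites. The table held no entry for Egr1, Egr3, Ier2, Klf10 and Phlda1. Windows are shown for Klf6, which had the smallest unadjusted p of the genes tested besides Csrnp1, and for Csrnp1 as the gene chosen by its values. For Egr2, a window at a start site inside the gene is shown, picked because it carries a serum response element. Each runs from 250 bases before to 50 bases after the start site, 5′ to 3′ on the strand of the gene, and capitals mark a serum response element where there is one.
Klf6 (chr13:5861239-5861538, plus strand): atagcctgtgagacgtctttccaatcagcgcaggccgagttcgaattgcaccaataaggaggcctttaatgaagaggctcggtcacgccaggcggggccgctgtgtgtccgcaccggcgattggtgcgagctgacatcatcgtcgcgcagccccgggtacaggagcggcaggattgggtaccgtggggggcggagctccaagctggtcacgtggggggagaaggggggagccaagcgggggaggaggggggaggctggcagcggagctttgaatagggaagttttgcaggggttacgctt
Csrnp1 (chr9:119984693-119984992, minus strand): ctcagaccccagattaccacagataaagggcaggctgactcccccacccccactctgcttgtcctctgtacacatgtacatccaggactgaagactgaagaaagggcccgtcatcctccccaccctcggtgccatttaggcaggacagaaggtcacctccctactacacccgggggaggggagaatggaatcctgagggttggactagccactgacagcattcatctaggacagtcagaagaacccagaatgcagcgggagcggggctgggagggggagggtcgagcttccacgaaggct
Egr2 (chr10:67537619-67537918, plus strand): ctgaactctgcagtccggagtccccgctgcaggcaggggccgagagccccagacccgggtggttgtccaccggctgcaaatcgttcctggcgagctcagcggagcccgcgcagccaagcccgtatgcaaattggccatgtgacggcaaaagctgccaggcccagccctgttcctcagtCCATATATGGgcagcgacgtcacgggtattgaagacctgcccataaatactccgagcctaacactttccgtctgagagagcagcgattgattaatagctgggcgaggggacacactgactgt

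Windows were searched on both strands for the serum response element (CArG box), the ETS core CCGGAAG, the AP-1 sites TGACTCA and TGAGTCA, the cAMP response element TGACGTCA and the EGR site GCGNGGGCG. The serum response element was present in 4 windows, all of Egr2, and in 1.63% of all 32851 windows of the table. These 4 belong to start sites inside the gene, 2091 to 2455 bases from its annotated start (GENCODE M21). The Egr2 window nearest the annotated start has no match. In the Egr2 window printed above the element reads CCATATATGG, and 3 of the Egr2 windows overlap and share that copy. The AP-1 site TGAGTCA was present in 1 window of Csrnp1, at a start site inside the gene, and an AP-1 site was present in 5.2% of all windows. The letters of the ETS core, the cAMP response element and the EGR site were in none of the 12 windows and in 8.86%, 1.79% and 5.55% of all windows. A match in sequence is not a measurement of binding.

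Total counts were between 22981498 and 42294719 per library. Vehicle clone8_1 stood apart, with 6.84% of its counts in genes whose typical transcript is shorter than 1000 nt, against 14.7% to 18.6% in the other libraries. The typical transcripts of the 10 genes were between 1131 and 4225 nt. In edgeR's quasi-likelihood test over 16248 genes, 0 genes (0%) had a Benjamini-Hochberg adjusted p under 0.05 for tamoxifen against vehicle, and 970 had an unadjusted p under 0.05. DESeq2 called 4 genes. The labels give the cell type as epiblast, but markers of the trophectoderm, the outer layer that immunosurgery removes, were present in every library. Their 10 genes summed to a length-scaled level (counts per kilobase of typical transcript, scaled to the same sum in each library) of 7910 to 9920 with vehicle and 5710 to 8290 with tamoxifen, and the 8 epiblast markers to 1300 to 2050 and 1340 to 2020. Krt8 and Krt18, keratins of simple epithelia, made up 66.6% to 76.8% of the trophectoderm sum, and the other 8 markers summed to 2480 to 2650 with vehicle and 1480 to 1920 with tamoxifen. In such bulk samples, fewer cells of a type and less RNA per cell cannot be told apart.

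The length-scaled level ordered the genes into 3 classes. Ier2 (mean 120 over the 7 libraries), Klf6 (85.8), Klf10 (44.4), Csrnp1 (42.6) and Phlda1 (24.7) had means above 20. Egr1 (4.84) and Ier3 (1.38) were low, and Egr2 (0.141), Ier5 (0.0104) and Egr3 (0.00452) were near 0. Neighbours kept this order in all 7 libraries for Klf6 over Klf10, Csrnp1 over Phlda1 and Phlda1 over Egr1. Ier2 was above Klf6 in 5 libraries, the exceptions being vehicle clone4_1 (129 against 132) and vehicle clone4_2 (113 against 115). Klf10 was above Csrnp1 in 5 libraries, so Klf10 and Csrnp1 were not separated from each other beyond their spread. Egr1 was above Ier3 in 6 libraries, the exception being vehicle clone4_1.

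**Figure D1:**
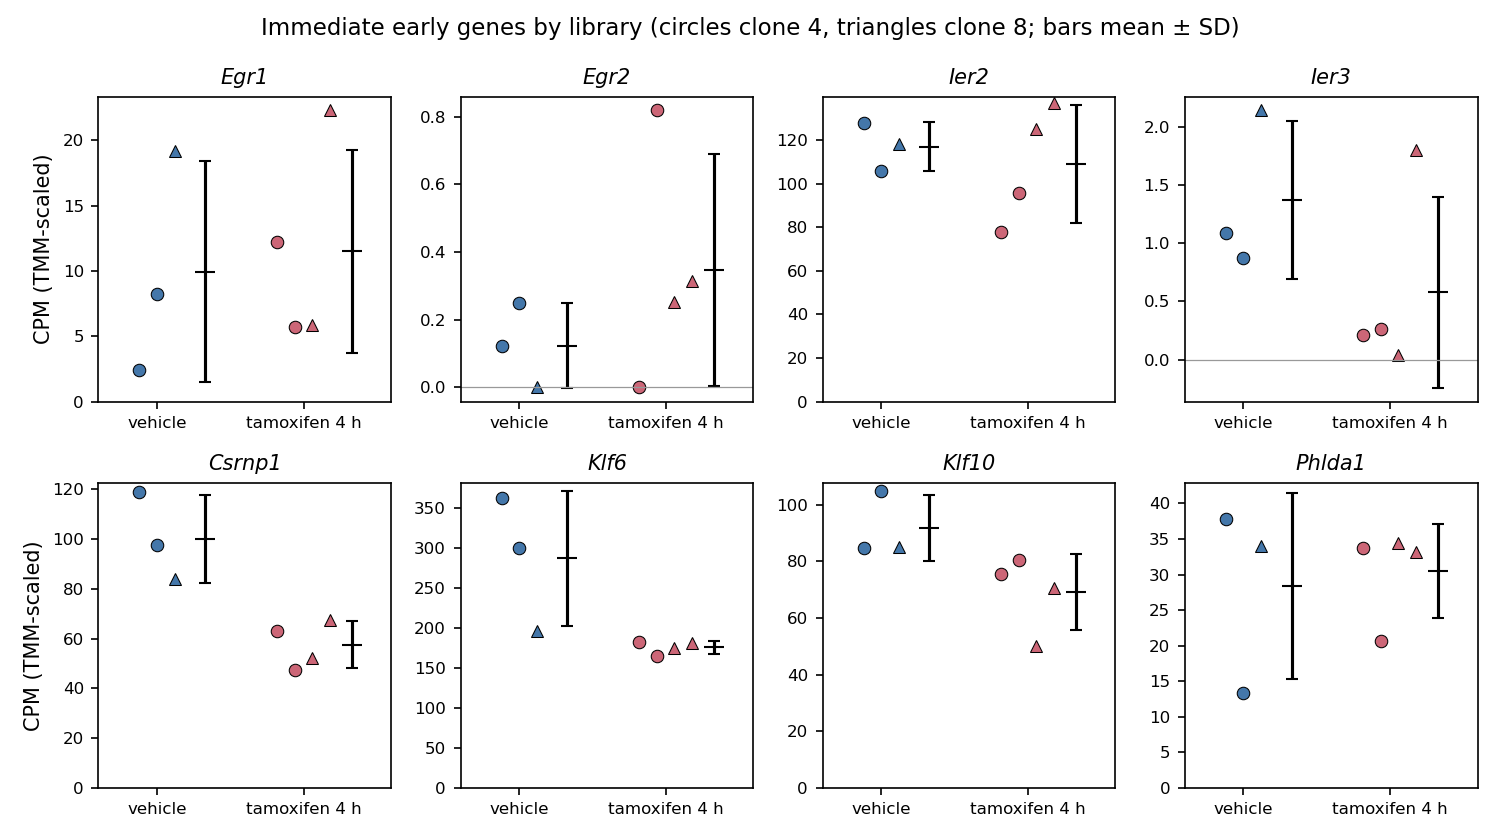
CPM of the 8 tested genes in each of the 3 vehicle and 4 tamoxifen libraries, with circles for clone 4, triangles for clone 8, and bars for the mean and SD of a group. All tamoxifen libraries lie below all vehicle libraries for Csrnp1, Klf6 and Klf10, while Egr1 spans 2.46 to 22.3 CPM with both groups mixed.

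Between libraries, each gene is given in CPM, its counts scaled to library size with edgeR's TMM factors. Egr1 (ENSMUSG00000038418) was the main EGR transcript, and it was as variable within a condition as between them. It had 2.46 and 8.25 CPM in vehicle clone4_1 and clone4_2 and 19.2 CPM in vehicle clone8_1. In tamoxifen libraries it had 12.2 and 5.73 CPM in clone4_1 and clone4_2, and 5.85 and 22.3 CPM in clone8_1 and clone8_2. The lowest and the highest library thus belonged to different conditions, and the groups overlapped over most of the range. Vehicle libraries averaged 9.95 ± 8.48 CPM (SD, n = 3) and tamoxifen libraries 11.5 ± 7.78 CPM (SD, n = 4).

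The fitted log2 fold change of Egr1 (tamoxifen against vehicle) was 0.21 ± 0.66 (SE) and did not pass (edgeR, adjusted p = 0.951). It was -0.27 without vehicle clone4_1 and -0.32 without tamoxifen clone8_2, so its sign rested on single libraries. On the log2 CPM scale, the difference was 0.88 in clone 4 and -0.74 in clone 8, where 1 vehicle library stands against 2. The interaction term of Egr1, clone 8 minus clone 4, was -1.20 ± 1.14 (SE; edgeR adjusted p = 0.682).

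Egr2 (ENSMUSG00000037868, chromosome 10, 67535475 to 67542188, plus strand, GRCm38), which in the embryo is best known from the hindbrain and Schwann cells, was counted 5, 8 and 0 times in vehicle clone4_1, clone4_2 and clone8_1. In tamoxifen clone4_1, clone4_2, clone8_1 and clone8_2 it had 0, 19, 7 and 13 counts. Only through tamoxifen libraries did it pass the expression filter, so the choice to test it favoured a higher value there. A library of either condition was at 0, and the fitted log2 fold change was 1.45 ± 1.48 (SE; edgeR adjusted p = 0.844). It was 2.40 without vehicle clone4_2 and 0.86 without vehicle clone8_1, neither passing the test. The difference of log2 CPM was -0.08 in clone 4 and 2.59 in clone 8, whose only vehicle library had 0 counts. Egr3 had 1 count in vehicle clone8_1, 1 in tamoxifen clone8_2 and 0 in the other 5 libraries. A count of 0 allows up to 3 counts, which is 0.071 to 0.129 CPM in these libraries, and covers counting error only. Egr3 did not pass the expression filter and was not tested.

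Transcripts of Nab1, Nab2 and Egr4 were also low. Nab1, a corepressor of EGR proteins, had 4.24, 6.01 and 3.73 CPM in vehicle and 6.56, 6.47, 7.84 and 4.08 CPM in tamoxifen libraries, in the order given above. The groups overlapped and its log2 fold change was 0.42 ± 0.34 (SE; edgeR adjusted p = 0.819). Nab2, the related corepressor whose gene is itself a target of EGR factors, had 0, 1 and 3 counts in vehicle and 7, 11, 2 and 21 counts in tamoxifen libraries and did not pass the filter. Egr4, the remaining member of the family, had 0 counts in all 7 libraries.

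Ier2 (ENSMUSG00000053560, chromosome 8, 84661331 to 84662852, minus strand, GRCm38) was the most abundant of the 10 genes by length and one of the steadiest. It had 128, 106 and 118 CPM in vehicle clone4_1, clone4_2 and clone8_1, and 77.8, 95.8, 125 and 137 CPM in tamoxifen clone4_1, clone4_2, clone8_1 and clone8_2. Both tamoxifen libraries of clone 4 were below all vehicle libraries and tamoxifen clone8_2 was above them. Its log2 fold change was -0.10 ± 0.21 (SE; edgeR adjusted p = 0.921). The difference of log2 CPM was -0.43 in clone 4 and 0.16 in clone 8, and the interaction was 0.59 ± 0.31 (SE; adjusted p = 0.421).

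Ier3 (ENSMUSG00000003541, chromosome 17, 35821684 to 35822923, plus strand, GRCm38), which encodes a membrane-anchored regulator of survival that ERK can phosphorylate, was low and uneven. Its raw counts were 44, 28 and 88 in the vehicle libraries and 9, 6, 1 and 74 in tamoxifen clone4_1, clone4_2, clone8_1 and clone8_2. The corresponding levels were 1.09, 0.872 and 2.14 CPM in vehicle and 0.213, 0.259, 0.0361 and 1.80 CPM in tamoxifen libraries. Of the 4 tamoxifen libraries, 3 lay below every vehicle library, and clone8_2 lay between vehicle clone4_1 and clone8_1. The log2 fold change was -1.22 ± 1.02 (SE; edgeR adjusted p = 0.825), and without tamoxifen clone8_2 it was -2.99 (edgeR adjusted p = 0.73). Without vehicle clone8_1 it was -0.75, and without both libraries numbered clone8_1 -0.36.

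Ier5, which encodes a regulator of heat shock factor 1, had 1 count in vehicle clone8_1, 5 counts in tamoxifen clone8_2 and 0 in the other 5 libraries. It did not pass the filter. The related Ier5l was at 0.268 to 1.31 CPM with vehicle and 0.971 to 2.49 CPM with tamoxifen.

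Klf6 (ENSMUSG00000000078, chromosome 13, 5861482 to 5870394, plus strand, GRCm38) had the most counts of the 10 genes. It had 363, 300 and 196 CPM in vehicle clone4_1, clone4_2 and clone8_1, and 183, 165, 175 and 181 CPM in tamoxifen clone4_1, clone4_2, clone8_1 and clone8_2. The tamoxifen libraries lay within a narrow range below every vehicle library, and the nearest vehicle library was clone8_1. Vehicle libraries averaged 287 ± 84.2 CPM (SD, n = 3) and tamoxifen libraries 176 ± 8.07 CPM (SD, n = 4). The fitted log2 fold change of -0.70 ± 0.20 (SE) did not pass over all genes (edgeR, unadjusted p = 0.00611, adjusted p = 0.794).

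The difference of Klf6 in log2 CPM was -0.93 in clone 4, where both vehicle libraries were high, and -0.14 in clone 8. The interaction of 0.79 ± 0.27 (SE) did not pass either (edgeR, unadjusted p = 0.0173, adjusted p = 0.216). This term was called in 3.16% of all genes and in none of the 7 tested here besides Csrnp1, and it rests on the single vehicle library of clone 8. Without vehicle clone8_1 the log2 fold change of Klf6 was -0.92 (edgeR adjusted p = 0.338), and without vehicle clone4_1 it was -0.51 (edgeR adjusted p = 0.551).

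Klf10 (ENSMUSG00000037465, chromosome 15, 38291463 to 38300706, minus strand, GRCm38), known as a gene induced early by TGF-beta, had 84.8, 105 and 85.2 CPM in vehicle clone4_1, clone4_2 and clone8_1. In tamoxifen clone4_1, clone4_2, clone8_1 and clone8_2 it had 75.5, 80.6, 50.1 and 70.5 CPM. Again each tamoxifen library was below each vehicle library, by as little as 80.6 against 84.8 CPM. The averages were 91.7 ± 11.7 CPM (SD, n = 3) and 69.2 ± 13.4 CPM (SD, n = 4). The log2 fold change was -0.41 ± 0.19 (SE; edgeR, unadjusted p = 0.063, adjusted p = 0.794). The log2 CPM difference was -0.28 in clone 4 and -0.52 in clone 8, the same direction in both.

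Csrnp1 (ENSMUSG00000032515, chromosome 9, 119971163 to 119984658, minus strand, GRCm38) had 119, 97.7 and 83.8 CPM in vehicle clone4_1, clone4_2 and clone8_1 and 63.2, 47.2, 52.2 and 67.4 CPM in tamoxifen clone4_1, clone4_2, clone8_1 and clone8_2. All tamoxifen libraries were below all vehicle libraries, which is the pattern for which the gene was chosen. The means were 100.1 ± 17.6 CPM (SD, n = 3) and 57.5 ± 9.4 CPM (SD, n = 4), a fitted log2 fold change of -0.80 ± 0.19 (SE). It ranged from -0.98 (clone 4 alone) to -0.67 (without vehicle clone4_1) over the alternatives run. The annotated gene lies within Cx3cr1 on the same strand and overlaps the antisense gene 1700019L13Rik by 1513 bp. Cx3cr1 had 0 counts in 6 libraries and 7 in tamoxifen clone4_2, and 1700019L13Rik had 66 to 273 counts against at least 1095 for Csrnp1.

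Phlda1 (ENSMUSG00000020205, chromosome 10, 111506286 to 111508645, plus strand, GRCm38) overlapped widely between the conditions. It had 37.8, 13.4 and 34.0 CPM in vehicle clone4_1, clone4_2 and clone8_1, and 33.7, 20.6, 34.4 and 33.2 CPM in tamoxifen clone4_1, clone4_2, clone8_1 and clone8_2. The 2 low libraries were both numbered clone4_2, 1 in each condition, and the other 5 lay between 33.2 and 37.8 CPM. The log2 fold change was 0.10 ± 0.34 (SE; edgeR adjusted p = 0.953) and was -0.24 without vehicle clone4_2.

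**Figure D2:**
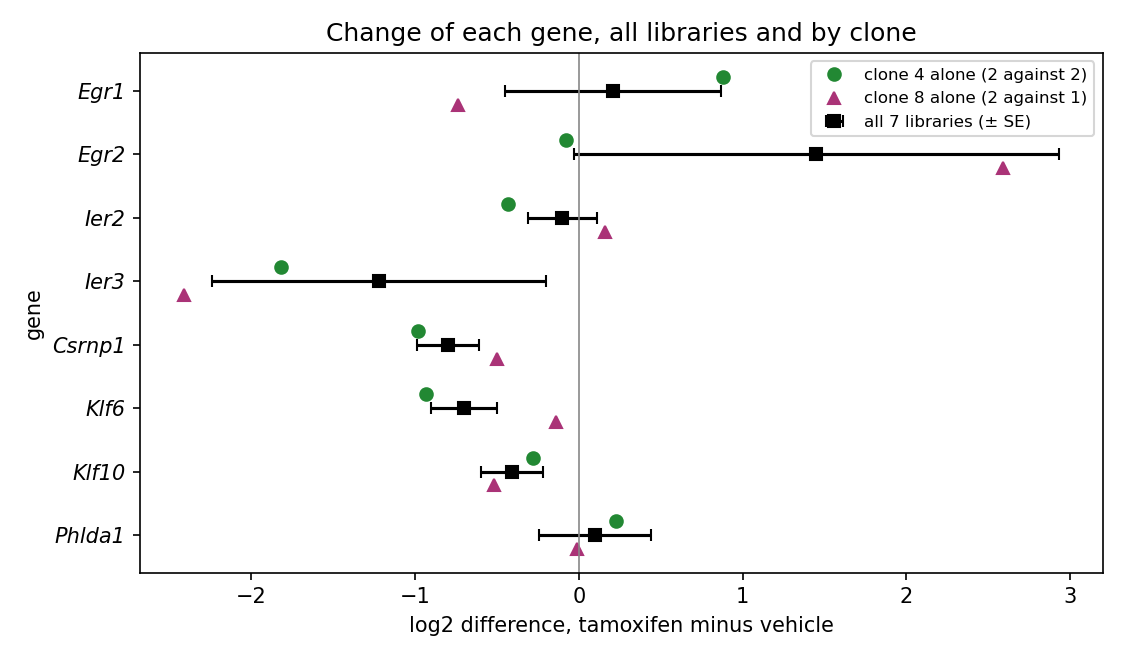
Log2 difference of tamoxifen minus vehicle for the 8 tested genes, as the edgeR fold change over all 7 libraries with its SE (black squares) and as the difference of mean log2 CPM in clone 4 (circles) and clone 8 (triangles, 1 vehicle library, no test). Csrnp1, Klf6 and Klf10 lie below 0 in both clones, Egr1 lies on opposite sides of 0 (0.88 and -0.74), and for Ier3 both clone values, which are not fitted, lie further from 0 than the fitted one.

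Leaving Csrnp1 aside, 7 of the other 9 genes passed the filter, and none was called, against 0% of all genes tested. Of the 7, 3 had a higher and 4 a lower fitted value with tamoxifen, with a median log2 fold change of -0.10 against 0.019 over all genes tested. Egr2, 1 of the 3 higher, passed the filter only through tamoxifen libraries, so its place on that side was favoured by the filter. In 2 of the 7 (28.6%), Klf6 and Klf10, all tamoxifen libraries were below all vehicle libraries, where 4.74% of all genes were. In 0 of the 7 were all tamoxifen libraries above all vehicle libraries, where 3.71% of all genes were. An unadjusted p under 0.05 was found for 1 of the 7, Klf6, against 3.28% of all genes that were lower and 2.69% that were higher at this p. With both libraries numbered clone8_1 left out, 2 of the 7 did not overlap in this direction, and the share over the same 16248 genes was then 12%.

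The spread between libraries of the same condition separated the genes from each other. The SD of log2 CPM within conditions was 1.18 for Egr1, 1.51 for Egr2 and 1.45 for Ier3, 0.59 for Phlda1, and from 0.24 to 0.30 for Csrnp1, Klf10, Klf6 and Ier2. Low genes vary more in general, so the SD was also ranked among genes with a mean CPM within 2 times that of the gene. Egr1 was at percentile 98.8 of 3096 such genes and Phlda1 at 90.8 of 3653. Egr2 and Ier3 were at 72.2 and 76.7, and Ier2, Klf6, Klf10 and Csrnp1 between 46.4 and 66.1.

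Libraries of the same clone and condition could be compared in 3 pairs. For Egr1 the higher of the pair was 3.36 times the lower in vehicle clone 4, 2.13 times in tamoxifen clone 4 and 3.81 times in tamoxifen clone 8. For Klf6 these ratios were 1.21, 1.11 and 1.03. For Phlda1 they were 2.82, 1.63 and 1.03, and for Ier3 1.25, 1.21 and 49.8, the last from 1 count against 74. The spread of Egr1 was thus present in all 3 pairs, whereas that of Ier3 lay within the clone 8 tamoxifen pair and not the clone 4 pairs. Over all 7 libraries the highest CPM of Egr1 was 9.06 times the lowest.

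**Figure D3:**
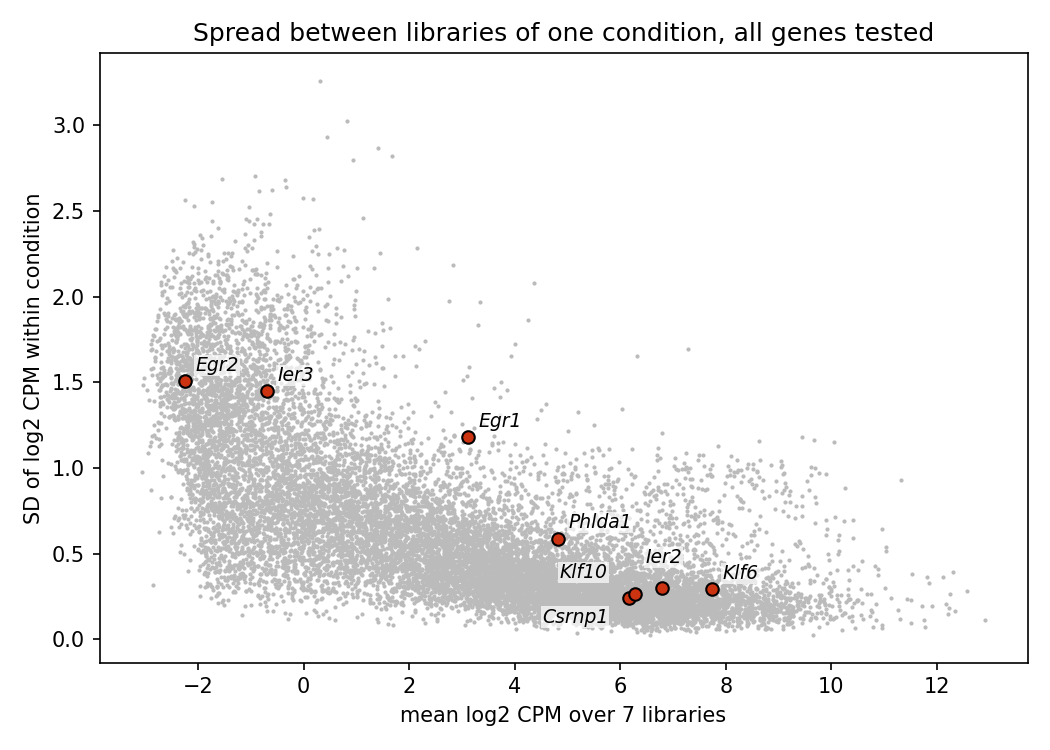
SD of log2 CPM within conditions (vertical axis) against mean log2 CPM over the 7 libraries (horizontal axis) for the 16248 tested genes in grey and the 8 tested immediate early genes in red. Egr1, with an SD of 1.18, lies at the upper edge of genes of its level, and Ier2, Klf6, Klf10 and Csrnp1 lie within the bulk at 0.24 to 0.30.

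The libraries in which a gene was high differed from gene to gene. As a measure of likeness, each gene was centred on its own mean of log2 CPM, and the root mean square difference between 2 genes was taken over the 7 libraries. Among the 28 pairs of tested genes it was smallest for Csrnp1 and Klf6 (0.18), Klf6 and Klf10 (0.34) and Csrnp1 and Klf10 (0.35), but Csrnp1 had been chosen for its low tamoxifen values, so the distances that include it are no finding. Egr1 was no nearer than 1.06 to any of the others (Ier2 and Klf10), and Egr1 and Egr2 were at 1.94. Egr1 was highest in tamoxifen clone8_2 and vehicle clone8_1, Csrnp1 and Klf6 in vehicle clone4_1, and Klf10 in vehicle clone4_2.

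Of all tested genes with a mean of at least 5 CPM, the 5 nearest to Egr1 were 4930550L24Rik (0.51), Dcaf12l1 (0.54), Gm5786 (0.55), Sec24d (0.56) and Cd74 (0.57). None of them is counted among immediate early genes here. Their lowest libraries were vehicle clone4_1 for 4 of the 5 and tamoxifen clone8_1 for Dcaf12l1. The 5 nearest to Ier2 were Ero1l (0.04), 2410131K14Rik (0.08), Cep83 (0.09), Gm15446 (0.10) and Tusc2 (0.10), and in each of them the 2 lowest libraries were the tamoxifen libraries of clone 4. Differences are smaller by construction between genes of small spread such as Ier2.

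Other genes of the response were read from lists drawn from general knowledge. Of the 34 other immediate early genes, 31 were tested, 20 were lower and 11 higher with tamoxifen, and the median log2 fold change was -0.16, against 0.019 for all genes. In 1 of the 31 (3.23%), Fos, all tamoxifen libraries were below all vehicle libraries, against 4.74% of all genes. In 0 were they all above, against 3.71%. An unadjusted p under 0.05 was found in 5 (16.1%), all lower, against 3.28% of all genes, and in 0 that were higher. They were Fos (-1.37 ± 0.36, SE), the partner of Jun in AP-1, Dusp1 (-0.79 ± 0.29, SE), a phosphatase of MAP kinases, and Errfi1 (-0.73 ± 0.29, SE), an inhibitor of the EGF receptor. The others were Jun (-0.56 ± 0.21, SE) and Zfp36 (-0.53 ± 0.23, SE), whose product speeds the decay of short-lived transcripts. None passed the adjustment over all genes in edgeR (adjusted p = 0.794 each), and without both libraries numbered clone8_1, 8 were lower at this unadjusted p, where 3.98% of all genes were.

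All 12 transcription factors and kinases that act at immediate early promoters were tested, among them Srf, Elk1, Elk3, Elk4, Creb1 and the RSK and MSK kinases, with 7 higher, 5 lower, a median of 0.24 and none at an unadjusted p under 0.05. That median was -0.15 without both libraries numbered clone8_1. Of the 10 relatives of the genes described here, 8 were higher and 2 lower (median 0.35, and 0.09 without both libraries numbered clone8_1). At an unadjusted p under 0.05, 2 were higher and 1 lower, where 2.69% and 3.28% of all genes were. Those higher were Klf4 (0.49 ± 0.19, SE), a pluripotency factor, and Phlda3 (0.58 ± 0.23, SE), a p53-induced inhibitor of AKT. Phlda2 (-1.88 ± 0.81, SE), an imprinted gene, was lower. None passed over all genes (edgeR adjusted p = 0.794). Phlda2 had 17.0 CPM in vehicle clone4_2 and at most 3.72 CPM in the other libraries, and without vehicle clone4_2 its log2 fold change was -0.18.

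The median of the ERK feedback list lay on the other side of 0. The list held Spry2, Spry4, Spred1, Spred2, Dusp4, Dusp6, Etv4, Etv5 and Ccnd1. Etv4, Etv5 and Ccnd1 in it are targets of the pathway and not inhibitors. Of the 9, all tested, 8 were higher and 1 lower with a median log2 fold change of 0.48, and an unadjusted p under 0.05 was found for 2, both higher, where 2.69% of all genes were. These were Spry2 (0.86 ± 0.21, SE) and Spred1 (1.27 ± 0.54, SE), both inhibitors of signalling to ERK, neither passing over all genes (edgeR adjusted p = 0.794). In all 4 tamoxifen libraries Spry2 was above all vehicle libraries, the only gene of the 9 and against 3.71% of all genes. Dusp6 (-0.17 ± 0.26, SE) was the gene with the lower value. Dusp1 (-0.79) and Errfi1 (-0.73), which also dampen the signal, were counted among the other immediate early genes and were lower. The contrast between the lists thus depends in part on where such genes were placed. No comparison between the lists was tested.

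**Figure D4:**
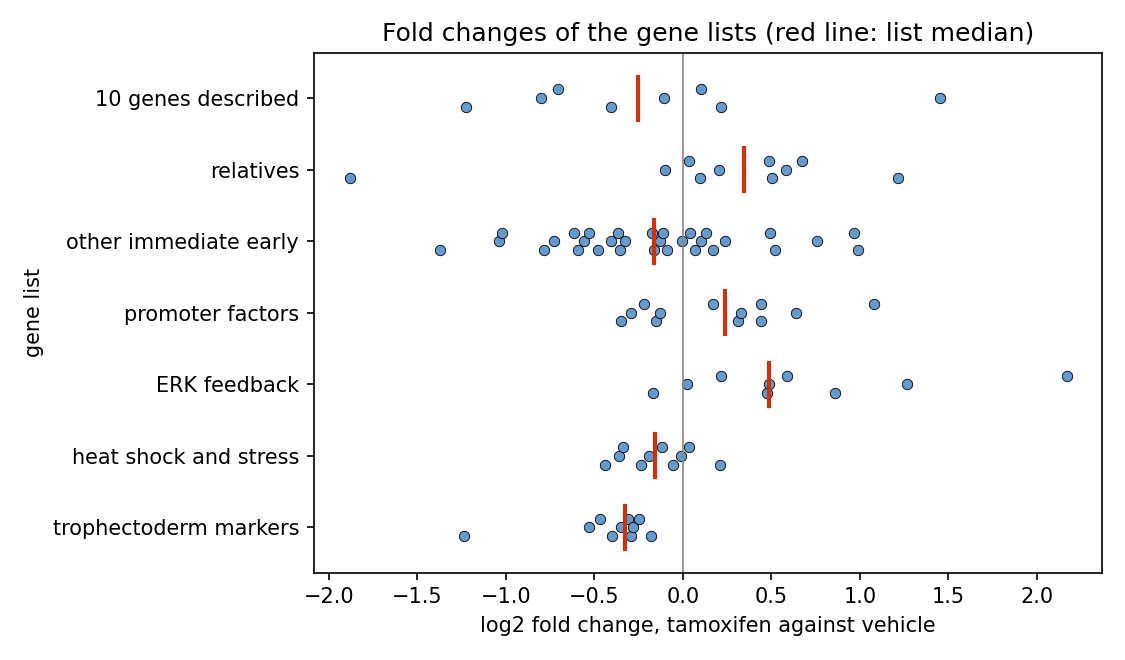
Log2 fold change of tamoxifen against vehicle for each tested gene of 7 lists, 1 point a gene, with the list median as a red line. The medians of the other immediate early genes (-0.16) and the ERK feedback list (0.48) lie on opposite sides of 0. The former include Dusp1 and Errfi1, and the latter the targets Etv4, Etv5 and Ccnd1. All 10 trophectoderm markers lie below 0.

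Lists of other cell types and of stress are given beside the lower values of Klf6 and Klf10; no gene of them was called. All 10 trophectoderm markers had lower fitted values with tamoxifen (median -0.33). An unadjusted p under 0.05 was found for 3 of them, against 3.28% of all genes that were lower at this p, and in 2 all tamoxifen libraries were below all vehicle libraries, against 4.74% of all genes. None of the 10 was at 0 in any library. Their summed CPM was 8530 to 11200 with vehicle and 6550 to 9530 with tamoxifen. Of the 8 primitive endoderm markers, 6 were higher and 2 lower (median 0.50), with overlapping summed CPM of 804 to 1100 and 842 to 978. Dab2, 1 of the 2 lower markers, averaged 743 CPM with vehicle and 644 CPM with tamoxifen and made up most of these sums. The other was Pdgfra (-0.50 ± 0.45, SE). Higher at an unadjusted p under 0.05 were Sox17 (2.58 ± 0.75, SE) and Lama1 (1.35 ± 0.36, SE), against 2.69% of all genes. They encode a transcription factor and a laminin chain of primitive endoderm. In both, all tamoxifen libraries were above all vehicle libraries, where 3.71% of all genes were. Sox17 varied widely within a condition, at 0.298, 4.24 and 4.34 CPM in the vehicle libraries. Of the 8 epiblast markers, 6 were higher and 2 lower (median 0.48), none at this p. The heat shock and stress list had 8 lower and 2 higher of 10 (median -0.16), none at this p. Its summed CPM overlapped, at 10100 to 11900 with vehicle and 9180 to 11000 with tamoxifen. Hsp90aa1 (means of 4660 CPM with vehicle and 4770 CPM with tamoxifen) and Hspa8 (5680 and 4420 CPM) made up most of this sum. Hspa1a and Hspa1b were at 0 to 1.90 CPM, so the sum says little about genes that rise when tissue is handled. The part of any of these lists in the values of Klf6, Klf10 and the other immediate early genes was not tested.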

How the data were processed

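RNA-seq libraries were made from pooled ICMs (2 ng of RNA each, per the labels' protocols). The authors deposited raw counts per Ensembl gene, 1 column per library, per the file headers. The submitters' processing notes name bcl2fastq 2.19.1, STAR 2.5.3a and mm10 (GRCm38); the counting program, annotation release and strand setting are not given in the sources used here, so reads of overlapping genes cannot be assigned with certainty. Symbols and typical (median) transcript lengths came from GENCODE M21 (52403 of 52636 genes matched).

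The genes, lists and tests were chosen with earlier results of these data known. Counts were tested with edgeR 4.0.16 (R 4.3.3): TMM factors, the package's filter on low counts by group, a quasi-likelihood fit on condition alone, and Benjamini-Hochberg adjustment over all 16248 genes tested, called under 0.05. A second fit added clone and its interaction. The SE of a fitted fold change is its absolute value divided by the square root of the test's F statistic. Log2 CPM used a prior count of 2. DESeq2 1.42.0, other scalings and filters, and leaving out libraries were alternatives. The code was tested on simulated data. Total counts of 22981498 to 42294719 set the precision. P-values measure the spread between pools, which may be technical, since no litters are named. Named genes were the 10 genes, EGR partners, list genes (markers aside) with an unadjusted p under 0.05, and the 5 genes nearest to Egr1 and Ier2. Dusp6, Ier5l, Sox17, Lama1, Krt8, Krt18, Dab2, Pdgfra, Hsp90aa1, Hspa8, Hspa1a, Hspa1b and the promoter factors named were picked after their values were seen. The symbols of the ERK feedback list are given in full.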

Additional observations from a re-analysis of the deposited data

Results flagged for a closer look

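Dixon's test was applied to 37 genes, the named genes with Dusp6, Ier5l, Sox17 and Lama1, of which 36 had unequal values among the 4 tamoxifen libraries. In 5 of these, 1 library lay further from the others than Dixon's limit for 4 values allows, a limit that chance alone passes in about 1 group in 20. Ier3 had 1.80 CPM in tamoxifen clone8_2, against 0.0361 to 0.259 CPM in the other tamoxifen libraries. Phlda1 had 20.6 CPM in tamoxifen clone4_2, against 33.2 to 34.4 CPM in the others. Jun had 62.0 CPM in tamoxifen clone8_2, against 40.7 to 41.4 CPM in the others. Egr3 and Ier5 had 0.0243 and 0.121 CPM in tamoxifen clone8_2 and 0 in the others, which is 1 count and 5 counts. With all the others at 0, any count passes the limit, so the rate of 1 in 20 does not apply to Egr3 and Ier5. The vehicle group, with 3 libraries, was not examined in this way.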

How the results depend on the processing

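No gene of the 7 tested without Csrnp1 was called under any alternative run, for condition or for the interaction. Klf6, Klf10 and Ier3 kept the direction of their change by condition in every alternative that tested them. Egr2 kept it where it was tested. In the main fit it passed the filter only through tamoxifen libraries, so this is no support for its direction. It was not tested in clone 4 alone, at a mean count of at least 50, or with any single tamoxifen library left out. The count of all genes called for condition was 0, and 4 with DESeq2 and 2 without both libraries numbered clone8_1. The sign of Egr1 reversed to -0.06 with the replicate block, -0.27 without vehicle clone4_1 and -0.32 without tamoxifen clone8_2, with a range of -0.32 to 1.11 when 1 library was left out. Phlda1 reversed to -0.24 without vehicle clone4_2 (range -0.24 to 0.34), and Ier2 to 0.01 without tamoxifen clone4_1 (range -0.23 to 0.01). The cause was not tested. For the interaction, 514 genes were called, 1023 with DESeq2, and 52 to 695 when 1 library was left out. Its sign reversed for Phlda1 (0.46 without vehicle clone4_2, 0.26 without tamoxifen clone4_1, range -1.06 to 0.46), Klf10 (0.01 without tamoxifen clone8_1, range -0.48 to 0.01) and Ier3 (-3.70 without tamoxifen clone8_2, range -3.70 to 1.80). Without both libraries numbered clone8_1 the median of the promoter factors was -0.15. That of the relatives was 0.09 (0.35 with them) and that of the epiblast markers 0.26 (0.48 with them). With the same libraries left out, 8 other immediate early genes were lower at an unadjusted p under 0.05 in place of 5, a count chosen after seeing the data. As a paired design, libraries with the same number did not deviate together (r across genes, which are not independent replicates, of 0.008, 0.021 and -0.068), and the replicate block called 0 genes. The percentile of spread among genes of similar level was also added after seeing the data. At these depths Egr3 and Ier5, with at most 5 counts in a library, are limited by counting error.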
